A study of Mus musculus with 8 samples.

Results

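Transcripts of 36 genes of the unfolded-protein response and the integrated stress response were followed across 8 mouse liver libraries. They were the rows of the deposited gene count table whose symbol was on a list of 36 members, and they were taken from 55487 gene identifiers. All 36 passed the low-count filter and so were among the 15598 genes tested, Phgdh and Asns only because of their levels in mutant livers. RNA came from livers of 8 mice labelled female, 1 library per mouse: 4 WT, 2 Ercc1 and 2 NemoDK_Ercc1. The Ercc1 mice carried the Ercc1 -/Δ genotype, in which 1 allele is null and the other hypomorphic, so that the DNA repair endonuclease subunit ERCC1 is scarce throughout the body. The NemoDK_Ercc1 mice had the same Ercc1 genotype and an allele of Nemo (Ikbkg), the non-catalytic part of the IKK kinase upstream of NF-kB. The labels call that allele DK and say nothing more of it, and they give WT mice neither allele. The WT mice were 10.7, 12.3, 11.1 and 11.8 weeks old (libraries 1 to 4), the Ercc1 mice 15.1 and 13.7 weeks, and the NemoDK_Ercc1 mice both 11.8 weeks. Age and the Ercc1 group therefore cannot be told apart fully, because both Ercc1 mice were older than every other mouse. The labels give neither feeding state nor time of collection.

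Proteins that enter the endoplasmic reticulum (ER) are folded there by chaperones and disulfide isomerases, and those that fail are extracted and degraded. The ER membrane holds 3 sensors of unfolded protein: IRE1 (gene Ern1), which splices the mRNA of the transcription factor XBP1, ATF6, which is cleaved to release a transcription factor, and PERK (gene Eif2ak3), which phosphorylates the translation factor eIF2α. Phosphorylated eIF2α also follows amino acid shortage, haem shortage and viral RNA through other kinases. It slows general translation while ATF4 is translated more, and ATF4 raises genes of amino acid synthesis and transport; this shared arm is the integrated stress response. Hepatocytes secrete most plasma proteins and have abundant ER. Counts per gene hold transcript abundance and not the splicing of Xbp1, the cleavage of ATF6 or the phosphorylation of eIF2α.

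Libraries held 21.6 to 27.8 M counts. Values per library are CPM, counts relative to the size of the library as scaled with TMM factors (0.89 to 0.932 in WT and 1.094 to 1.099 in the mutant libraries). WT library 3 held 0 Xist counts and 3087 counts of 4 Y-linked genes, against 9331 or more Xist counts in each of the other 7 libraries, so its RNA did not match the female label. Results that it moved are given with and without it. Every mutant library had less Ercc1 transcript than every WT library, with 5.04, 2.57, 3.58 and 4.44 CPM across WT libraries 1 to 4, 1.76 and 1.49 CPM in Ercc1 and 1.87 and 1.86 CPM in NemoDK_Ercc1. Ikbkg was 56.8, 56.9, 68.4 and 63.4 CPM in WT mice, 93.3 and 84.01 CPM in Ercc1 mice and 81.9 and 71.9 CPM in NemoDK_Ercc1 mice. The liver label was met by all 12 hepatocyte markers, whose summed CPM was 130193 to 159885 in WT and 93830 to 100062 in the mutant libraries, and 10 of the 12 were lower in the mutant groups combined. Among all tested genes 13.9% were lower and 14.9% higher in that comparison, which the counts below also use. Marker lists of other cells differed in direction. Of the immune lists, 7 of 11 macrophage and monocyte genes and 7 of 10 tested B and plasma cell genes of 12 listed were higher, and of 9 T and NK cell genes 1 was. Their summed CPM was 254 to 485 in WT and 385 to 661 in the mutant libraries for macrophages, and 17.9 to 26.9 against 20.5 to 52.8 for B and plasma cells. T and NK cell sums were 5.07 to 7.17 and 5.13 to 11.01 CPM. Of 7 endothelial genes 3 were higher and 1 was lower (Stab2), with sums of 210.2 to 229.9 CPM in WT and 182 to 229 in the mutant libraries. Of 9 stellate cell and fibroblast genes 5 were higher, with sums of 158 to 221 and 223 to 432 CPM. Neutrophil marker sums were 0.926 to 1.695 CPM in WT and 2.33 to 6.01 in the mutant libraries, with Ly6g, Mmp8, Camp and Ngp at 0 in some libraries, and cholangiocyte sums were 28.9 to 34.2 and 42.3 to 61.1 CPM. The part of these marker shifts in the results below was not tested, and in bulk liver RNA fewer cells of a type and less RNA per cell cannot be told apart. Pancreatic acinar cells, which are rich in the same ER genes, left 0 counts of Cpa1, Amy2b, Pnlip and Ctrb1 in every library and at most 1 count of Prss2 and Cel. Of the other 2 genes on that list of 8, Cela1 was lower in the mutant groups combined, with 853 to 1513 counts in WT and 246 to 435 in the mutant libraries, and Cela2a had no call. Summed over that list, the 4 WT livers had 34.5 to 67.99 CPM and the 4 mutant livers 11.6 to 15.4.

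The stretches of promoter below carry sequence elements through which ATF6, XBP1 and ATF4 are known to act, and they are shown for 3 genes that were lower in mutant livers (Herpud1, Hsp90b1 and Dnajc3) and for 2 without a call (Calr and Chac1). RefSeq windows (GRCm38.p6) from 250 bases before to 50 bases after the transcription start were found for 33 of the 36 members, and none for Hyou1, Manf and Atf6. Capitals mark the ER stress response element (ERSE: CCAAT, any 9 bases, CCACG) in Dnajc3, its reverse complement in Calr, and in Hsp90b1 first the one and then the other orientation. In Herpud1 they mark, from left to right, the reverse complement of the ATF4 and C/EBP element (CARE: TGATGNAA) and the second ER stress element (ERSE-II: ATTGG, any 1 base, CCACG). In Chac1 they mark a reverse-complement CARE. Each stretch lies outside the exons of its own gene in GENCODE M21 and reads 5′ to 3′ on the strand of the gene. Exons of other genes were not checked.
Herpud1, chr8:94386302-94386402, plus strand: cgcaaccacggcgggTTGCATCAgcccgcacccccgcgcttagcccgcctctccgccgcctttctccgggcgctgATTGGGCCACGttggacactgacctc
Hsp90b1, chr10:86705518-86705671, minus strand: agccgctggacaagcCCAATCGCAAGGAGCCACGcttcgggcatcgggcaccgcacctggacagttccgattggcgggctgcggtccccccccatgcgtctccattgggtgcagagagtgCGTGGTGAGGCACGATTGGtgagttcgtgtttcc
Dnajc3, chr14:118937812-118937860, plus strand: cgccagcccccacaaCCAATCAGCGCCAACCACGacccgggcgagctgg
Calr, chr8:84847060-84847108, minus strand: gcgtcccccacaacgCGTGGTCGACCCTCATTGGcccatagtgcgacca
Chac1, chr2:119351034-119351071, plus strand: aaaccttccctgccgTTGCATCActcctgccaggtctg

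Both strands were searched for these elements and for the core of the unfolded protein response element (UPRE: TGACGTG), and no 2 matches overlapped within a member. ERSE was found in 9 of the 33 members (27.3%; Hspa5, Hsp90b1, Dnajc3, Calr, Canx, Creld2, Pdia6, Syvn1 and Derl3) and in 0.137% of all 27025 genes with a window. ERSE-II was found in Dnajb11 and Herpud1 (6.06% of members, 0.0444% of genes). CARE was found in Herpud1, Asns, Nupr1, Chac1 and Trib3 (15.2% of members, 4.51% of genes), and the UPRE core in Hspa5 (3.03% and 2.22%). Herpud1 was the member that held both an ERSE-II and a CARE. Several of these elements were first described in these same genes, so their presence here is a description of the windows and of no site in use.

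**Figure D1:**
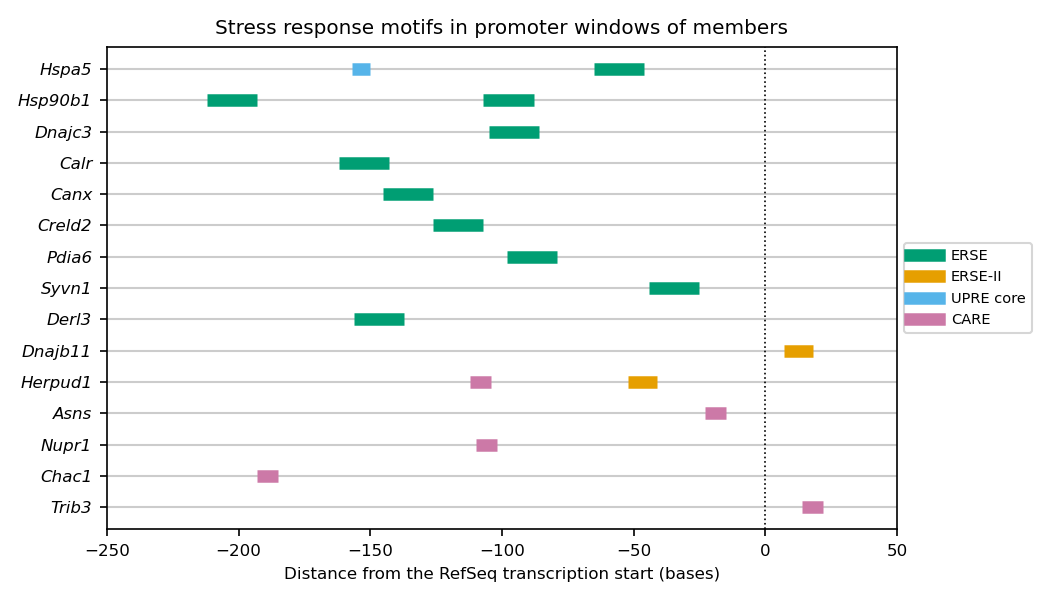
Position of the element matches in the promoter windows of the 15 members that hold 1 or more; the x axis is the distance in bases from the RefSeq transcription start, dotted at 0, and each coloured bar is 1 match. ERSE matches lie before the start in 9 genes, and Herpud1 holds a CARE and an ERSE-II.

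Of the 36 members, 12 differed between the mutant groups combined and WT, 5 of them higher (P4hb, Nupr1, Psat1, Phgdh and Mthfd2) and 7 lower (Hsp90b1, Dnajc3, Herpud1, Sel1l, Edem1, Ern1 and Atf6). Among all tested genes 14.9% were higher and 13.9% lower in that comparison, and 13.9% and 19.4% of the members were. Phgdh passed the low-count filter only through mutant libraries, so its place among the 5 is no support for a direction. A gene is called here when edgeR's quasi-likelihood test gave a Benjamini-Hochberg adjusted p under 0.05 over all 15598 genes, and fold changes are log2 values ± standard error. In Ercc1 against WT, 3 members were higher and 2 lower, with 11.3% of all genes higher and 9.5% lower. In NemoDK_Ercc1 against WT, 1 member was higher (Phgdh, under the same limit) and 7 were lower, with 10.6% of all genes higher and 7.4% lower. These comparisons share the WT libraries and are given side by side. The median log2 fold change over the 36 members was 0.23 in Ercc1 and -0.34 in NemoDK_Ercc1 against WT, where the median of all tested genes was 0.00 in both. No gene at all was called between NemoDK_Ercc1 and Ercc1 (0% of all genes in either direction, and 0 members), and 1062 genes, or 6.81%, had an unadjusted p under 0.05 there. DESeq2 called 33 genes higher and 36 lower in that comparison, and limma-voom called 0.

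Library by library, 4 members had every mutant library above every WT library (P4hb, Nupr1, Psat1 and Phgdh) and 4 had every mutant library below (Herpud1, Sel1l, Ern1 and Atf6). The shares of all tested genes without overlap were 15.8% higher and 15% lower. Phgdh counts here under the limit of the filter given above. The other 28 members overlapped. Some calls depended on how the libraries were scaled: with library size alone, which moves the median of all genes by 0.27, the mutant groups combined had 7 members higher and 2 lower, where 4945 of the 15598 tested genes were higher and 898 lower. With upper-quartile factors the members' counts were 6 and 4, and those of all genes 2786 and 1562. With age as a covariate Herpud1 was the 1 member called in the mutant groups combined, where 445 of all genes were higher and 382 lower. In Ercc1 against WT that covariate left 0 members, and 24 of all genes higher and 17 lower. In NemoDK_Ercc1 against WT it left 7 of the 8 calls, without Sel1l and with Trib3 added, and 1584 of all genes higher and 1058 lower. Without WT library 3, 8 members were called in Ercc1 against WT, with Eif2ak3, Asns and Phgdh added to the 5, where 1845 of all genes were higher and 1563 lower. For Asns and Phgdh no WT library then exceeded the cutoff of the low-count filter, so their calls are no support for a direction. In NemoDK_Ercc1 against WT the count was then 10 (1672 and 1344 of all genes). For both groups together it was 13 (2247 and 2085). Leaving out either NemoDK_Ercc1 library leaves 1 library in that group. Fewer members and fewer of all genes were then called in the mutant groups together.

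**Figure D2:**
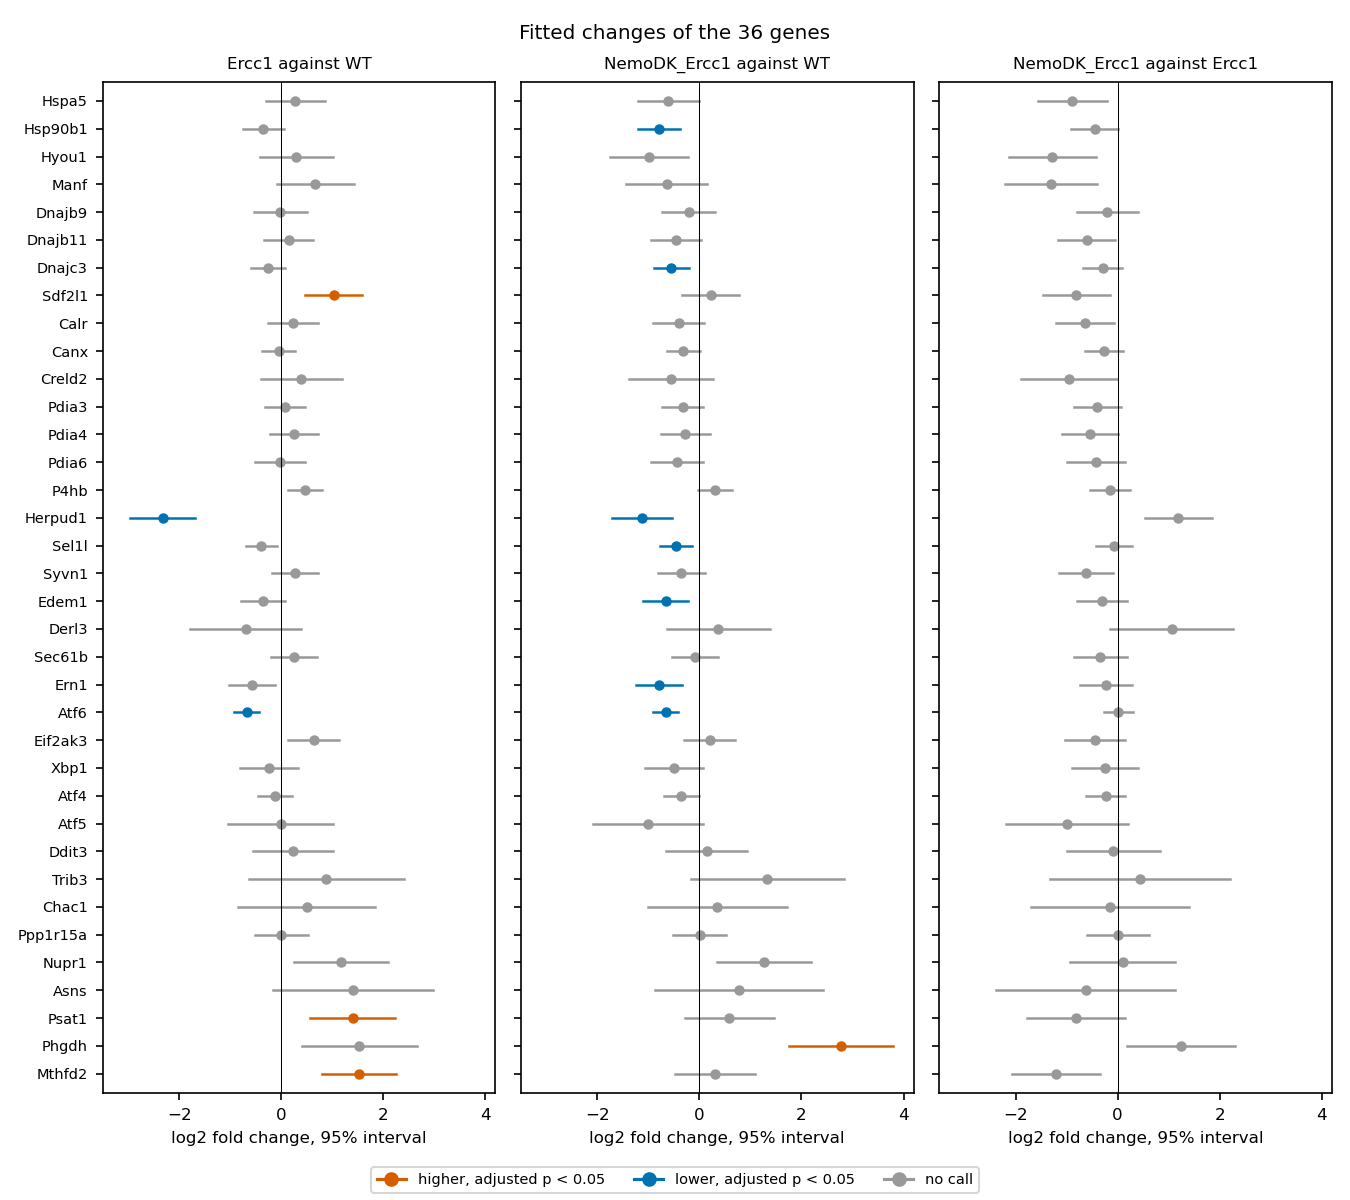
Fitted log2 fold change of each of the 36 genes (point) with its 95% interval (line) in Ercc1 against WT, NemoDK_Ercc1 against WT and NemoDK_Ercc1 against Ercc1, coloured by call. Herpud1 and Atf6 were lower in both mutant groups against WT, and no gene was called between the mutant groups.

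**Figure D3:**
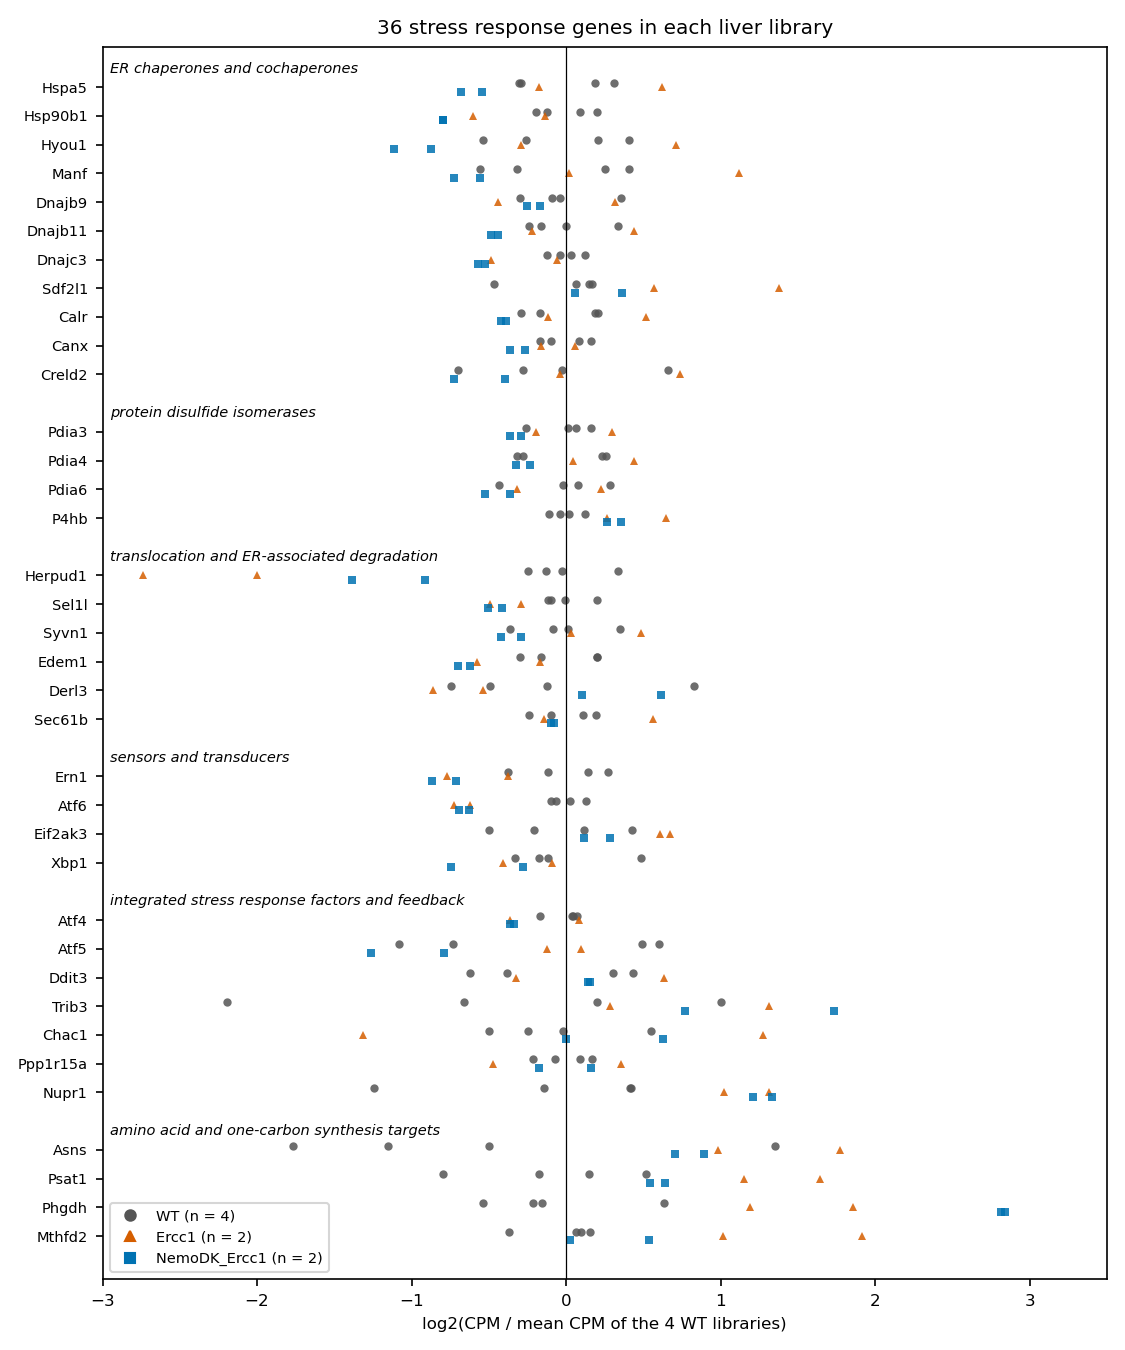
Level of each gene in each library as log2 of its CPM over the mean CPM of the 4 WT libraries, by role; circles are WT (n = 4), triangles Ercc1 (n = 2) and squares NemoDK_Ercc1 (n = 2). In the chaperone rows the 2 Ercc1 triangles lie apart and the NemoDK_Ercc1 squares lie close together, mostly on the left.

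Genes of ER-associated degradation held the largest decrease among the members. Herpud1, an ER membrane protein that helps assemble the degradation complex, fell in both mutant groups. Sel1l and Edem1, which deliver misfolded glycoproteins to that complex, were lower by smaller amounts, while its ubiquitin ligase Syvn1 had no call. Of 6 members of this role, 3 were lower and 0 higher in the mutant groups combined, where 13.9% of all tested genes were lower and 14.9% higher.

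Herpud1 (chr8:94386438-94395377, plus strand, GRCm38, protein-coding, no exon shared with another gene) had 301, 449, 326 and 350.5 CPM in the WT livers, 53.5 and 89.2 in the Ercc1 livers and 136 and 189 in the NemoDK_Ercc1 livers. All 4 mutant libraries lay below all 4 WT libraries, and both Ercc1 libraries lay below both NemoDK_Ercc1 libraries. The group means were 356 ± 64.97 CPM (SD, n = 4), 71.3 ± 25.2 (SD, n = 2) and 163 ± 37.3 (SD, n = 2). The log2 fold change against WT was -2.32 ± 0.28 in Ercc1 (edgeR adjusted p = 0.00135) and -1.13 ± 0.26 in NemoDK_Ercc1 (adjusted p = 0.0203). For both groups combined it was -1.73 ± 0.21 (adjusted p = 0.000812), and this call held in all 19 alternatives, with fold changes from -1.94 to -1.46. With age as a covariate the change in Ercc1 was -2.34 and had no call (edgeR adjusted p = 0.149), and over the 19 alternatives it ranged from -2.74 to -2.00. The call in NemoDK_Ercc1 ended when either NemoDK_Ercc1 library was left out and at a threshold of 0.01. Between the mutant groups the fold change was 1.19 ± 0.29, with a 95% interval from 0.53 to 1.85, higher in NemoDK_Ercc1. It had no call (edgeR adjusted p = 0.588), except with DESeq2 and with no filter on low counts. Per transcript length, on the TPM scale, Herpud1 was the fifth of the 36 members in WT (mean 344 TPM), above Hspa5 (315 TPM).

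Sel1l, the adaptor that holds substrates to the Syvn1 ligase, was measured at 152, 143, 141 and 176 CPM across WT libraries 1 to 4, 109 and 125 CPM in Ercc1 and 108 and 115 CPM in NemoDK_Ercc1. Every mutant library was below every WT library, by a small margin next to the spread of WT. Its log2 fold change was -0.42 ± 0.11 for the mutant groups together (edgeR adjusted p = 0.02), -0.39 ± 0.13 in Ercc1 (adjusted p = 0.0719) and -0.46 ± 0.14 in NemoDK_Ercc1 (adjusted p = 0.0472). The last of these calls was lost under 13 of 19 alternatives, and that for the mutant groups together under 7. Edem1, a lectin that recognises trimmed glycans on misfolded proteins, had 246, 246, 174 and 192 CPM in WT mice, 190.5 and 144 CPM in Ercc1 mice and 132 and 139 CPM in NemoDK_Ercc1 mice. The NemoDK_Ercc1 libraries were below all WT libraries, and Ercc1 library 1 lay inside the WT range. The change was -0.66 ± 0.19 in NemoDK_Ercc1 (edgeR adjusted p = 0.0451) and -0.51 ± 0.15 for both groups (adjusted p = 0.0356). Of the 19 alternatives, 8 ended the first of these calls and 9 the second.

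Syvn1, the ubiquitin ligase of ER-associated degradation, was 87.9, 67.9, 82.4 and 111 CPM in the WT livers, 122 and 89.3 in the Ercc1 livers and 71.5 and 65.2 in the NemoDK_Ercc1 livers. Ercc1 library 1 was the highest of the 8 and the NemoDK_Ercc1 libraries stayed within or just below the WT range. Derl3, a channel component of the same pathway, was low at 0.678, 0.806, 2.01 and 1.04 CPM across WT libraries 1 to 4, 0.623 and 0.781 CPM in Ercc1 and 1.22 and 1.74 CPM in NemoDK_Ercc1, with WT library 3 the highest of all. Sec61b, a subunit of the import channel, was 66.4, 54.2, 62.7 and 49.1 CPM in WT mice, 85.8 and 52.7 CPM in Ercc1 mice and 55.1 and 54.2 CPM in NemoDK_Ercc1 mice, where only Ercc1 library 1 left the WT range. None of these 3 genes had a call in any of the 4 comparisons.

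Of the 3 sensors 2 were lower at the transcript level in the mutant groups combined, where 13.9% of all tested genes were lower. Atf6 and Ern1 were below WT in every mutant library, whereas Eif2ak3 was above WT in both Ercc1 libraries without a call. Atf6 (chr1:170704674-170867771, minus strand) was at 70.95, 69.5, 81.3 and 75.5 CPM in the WT livers, 44.9 and 48.2 in the Ercc1 livers and 45.9 and 48.04 in the NemoDK_Ercc1 livers. The groups did not overlap and the 4 mutant values were close to each other. The log2 fold change was -0.68 ± 0.11 in Ercc1 (edgeR adjusted p = 0.00443), -0.66 ± 0.11 in NemoDK_Ercc1 (adjusted p = 0.00573) and -0.67 ± 0.09 for both (adjusted p = 0.00119). Of the 19 alternatives, age as a covariate was the 1 that ended the call for both groups together (edgeR adjusted p = 0.0695), and it also ended the call in Ercc1 (adjusted p = 0.38). The call in NemoDK_Ercc1 ended when either NemoDK_Ercc1 library was left out. The difference between the mutant groups was 0.01 ± 0.12, with a 95% interval from -0.27 to 0.29.

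Ern1 (chr11:106394650-106487852, minus strand), which encodes IRE1α, was 131, 83.5, 119 and 99.6 CPM across WT libraries 1 to 4, 83.3 and 63.3 CPM in Ercc1 and 66.2 and 59.2 CPM in NemoDK_Ercc1. WT library 2 and Ercc1 library 1 almost met, so the separation was narrow. The change was -0.79 ± 0.20 in NemoDK_Ercc1 (edgeR adjusted p = 0.0289), -0.56 ± 0.20 in Ercc1 (adjusted p = 0.0751) and -0.68 ± 0.16 for both (adjusted p = 0.0144). The call in NemoDK_Ercc1 and that for both groups were each lost under 5 of 19 alternatives, library size alone among them. Eif2ak3, which encodes PERK, was 14.1, 11.5, 21.9 and 17.6 CPM in WT mice, 25.99 and 24.8 CPM in Ercc1 mice and 19.8 and 17.7 CPM in NemoDK_Ercc1 mice. Its fold change in Ercc1 was 0.64 ± 0.22 (edgeR adjusted p = 0.0695), and without WT library 3, the highest WT library for this gene, it was 0.83 (adjusted p = 0.0115). Xbp1 was 223, 200.2, 353 and 232 CPM in the WT livers, 237 and 189.7 in the Ercc1 livers and 207 and 150.1 in the NemoDK_Ercc1 livers, with WT library 3 far above the rest. No comparison called Xbp1, and spliced and unspliced Xbp1 mRNA were counted as 1 gene.

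**Figure D4:**
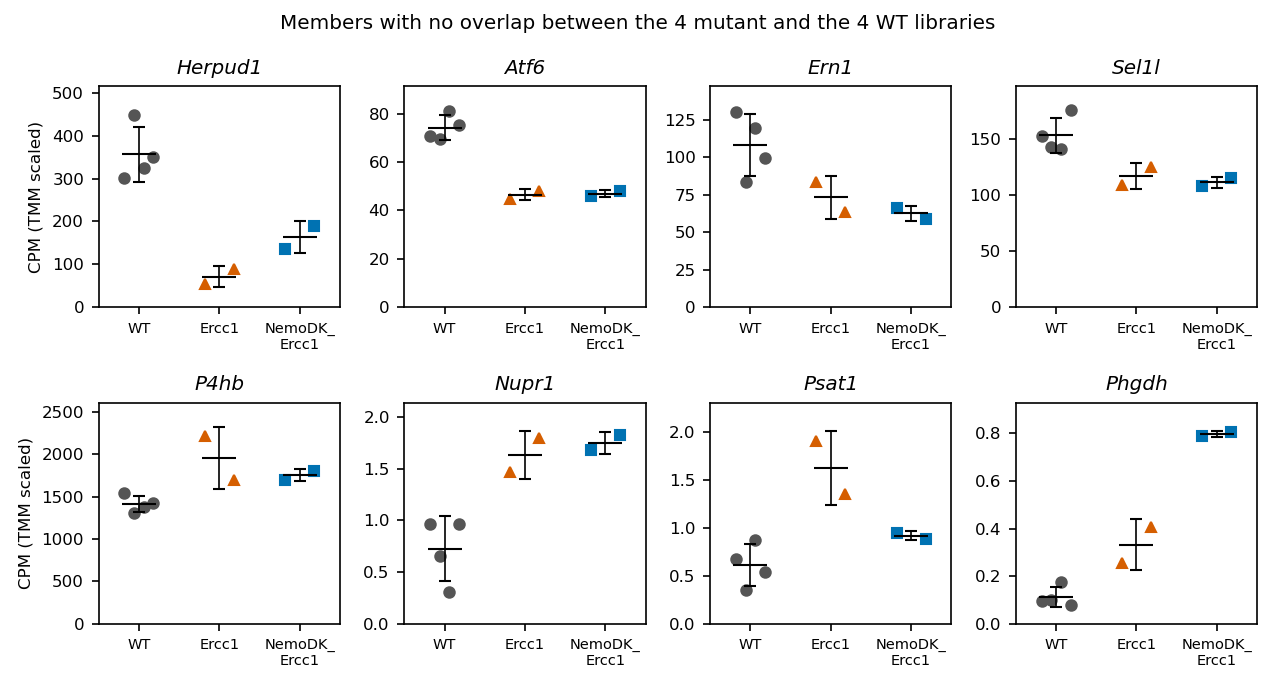
CPM in each library for the 8 members whose mutant and WT libraries did not overlap; the points are libraries (n = 4 WT, 2 Ercc1, 2 NemoDK_Ercc1), and the lines give the group mean and SD. Herpud1 was lowest in Ercc1, Atf6 was alike in all 4 mutant libraries, and Phgdh was highest in NemoDK_Ercc1.

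The ER chaperones and disulfide isomerases, 15 members in all, gave 3 calls in the mutant groups combined: of 11 chaperones 2 were lower, and of 4 isomerases 1 was higher. Among all tested genes 13.9% were lower and 14.9% higher there. The 2 Ercc1 livers differed from each other. Ercc1 library 1 was above Ercc1 library 2 for 15 of 15 genes, with a median ratio of 1.55, where 47% of all tested genes were higher in library 1. It was the highest of the 8 libraries for 10 of the 15 genes (66.7%, against 17.3% of all tested genes). The NemoDK_Ercc1 libraries lay close together and mostly below WT. As log2 of the ratio to the WT mean, the median of the 15 genes was 0.44 in Ercc1 library 1, -0.17 in Ercc1 library 2, and -0.39 and -0.42 in the NemoDK_Ercc1 libraries.

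The WT livers also differed among themselves in these genes. WT library 4 was the highest WT library for 12 of the 15 genes (80% of them and 20.5% of all tested genes), and WT library 2 the lowest for 11 (73.3% and 26.7%). The 4 WT medians were 0.09, -0.28, -0.16 and 0.21. The median fitted log2 fold change of the 15 genes was 0.24 in Ercc1 against WT, and it was -0.18 without Ercc1 library 1 and 0.44 without Ercc1 library 2. The sign of the Ercc1 median therefore changed with 1 library. In NemoDK_Ercc1 against WT the median was -0.44, and for both mutant groups together it was -0.13. Ercc1 library 1 was the oldest mouse. Its summed markers of macrophages, B and plasma cells and stellate cells were 385, 20.5 and 223 CPM, against 661, 52.8 and 432 in Ercc1 library 2. Their part in the difference between these 2 mice was not tested.

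**Figure D5:**
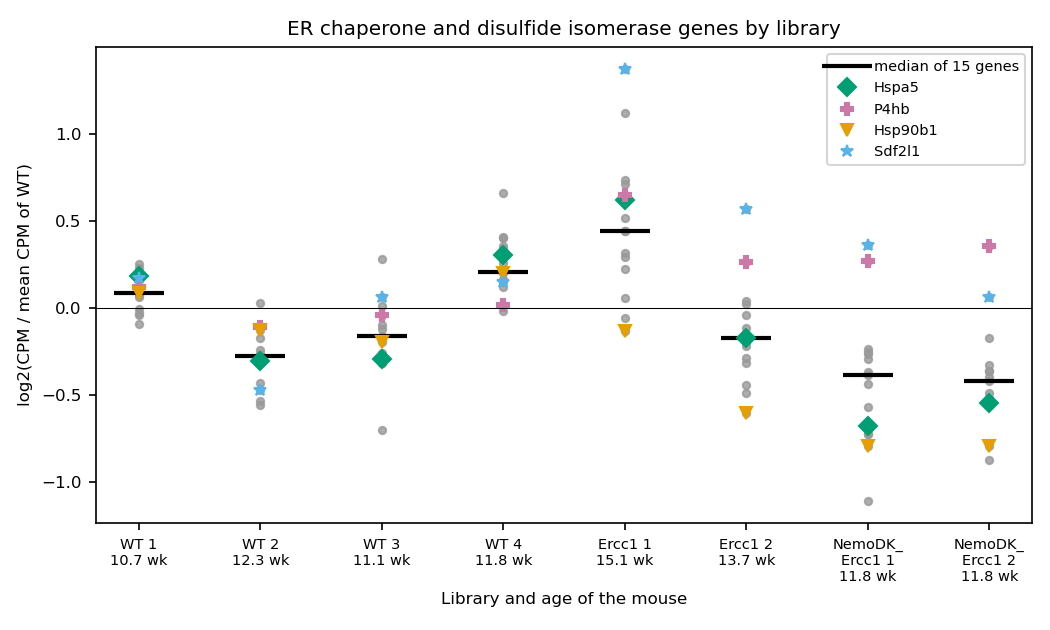
Levels of the 15 chaperone and disulfide isomerase genes in each library, as log2 of CPM over the WT mean, with the age of each mouse under its library; grey points are single genes, the black bar is their median, and 4 genes are marked. Ercc1 library 1 has the highest median (0.44) and the NemoDK_Ercc1 libraries the lowest (-0.39 and -0.42).

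Hspa5 (chr2:34771970-34777547, plus strand) encodes BiP, the Hsp70 chaperone of the ER lumen that also holds the stress sensors inactive. It was 669.9, 477, 482 and 729 CPM across WT libraries 1 to 4, 907 and 523 CPM in Ercc1 and 369 and 404 CPM in NemoDK_Ercc1. Ercc1 library 1 was the highest of all 8, Ercc1 library 2 lay within the WT range, and both NemoDK_Ercc1 libraries were below every WT library. No call resulted: the change was 0.28 ± 0.26 in Ercc1 (edgeR adjusted p = 0.472) and -0.61 ± 0.27 in NemoDK_Ercc1 (adjusted p = 0.143). Between the mutant groups it was -0.89 ± 0.30, with a 95% interval from -1.57 to -0.20 (edgeR adjusted p = 0.648).

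Hsp90b1, the ER form of Hsp90, was 718, 619, 591 and 776 CPM in WT mice, 616 and 445 CPM in Ercc1 mice and 389 and 389.7 CPM in NemoDK_Ercc1 mice. Ercc1 library 1 lay within the WT range and the other 3 mutant libraries below it. Hsp90b1 was lower in NemoDK_Ercc1 at -0.80 ± 0.18 (edgeR adjusted p = 0.0198) and for both groups together at -0.57 ± 0.14 (adjusted p = 0.0186), and in Ercc1 it was -0.35 ± 0.18 (adjusted p = 0.195). Of the 19 alternatives, 4 ended its call in NemoDK_Ercc1 and 6 that for both groups. Dnajc3, a J-domain cochaperone of BiP that also restrains PERK, was 191, 199.99, 180.04 and 213 CPM in the WT livers, 188 and 139.8 in the Ercc1 livers and 132 and 136 in the NemoDK_Ercc1 livers. Only Ercc1 library 1 reached the WT range. Its change was -0.55 ± 0.15 in NemoDK_Ercc1 (edgeR adjusted p = 0.0372) and -0.40 ± 0.12 for both (adjusted p = 0.0354), a call lost under 11 of 19 alternatives. Both genes carry the ERSE printed above. They were the 2 of the 9 members with an ERSE that were called in the mutant groups combined, and the median change of the 9 was -0.17. The shares of all tested genes there were 13.9% lower and 14.9% higher.

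Hyou1, a large Hsp70-type chaperone that exchanges the nucleotide of BiP, was 164, 98.01, 119 and 188 CPM across WT libraries 1 to 4, 233 and 116 CPM in Ercc1 and 65.8 and 77.6 CPM in NemoDK_Ercc1. Ercc1 library 1 was at the top and both NemoDK_Ercc1 libraries were below WT. The change was -0.99 ± 0.33 in NemoDK_Ercc1 (edgeR adjusted p = 0.0729) and -1.28 ± 0.37 between the mutant groups (adjusted p = 0.637). Manf, a small ER stress protein that binds BiP and can be secreted, was 64.2, 36.6, 43.3 and 71.6 CPM in WT mice, 117 and 54.7 CPM in Ercc1 mice and 32.6 and 36.6 CPM in NemoDK_Ercc1 mice. Ercc1 library 1 stood at 2.14 times Ercc1 library 2, while WT and NemoDK_Ercc1 overlapped.

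Sdf2l1, which works with Dnajb11 to keep substrates soluble, was the 1 chaperone called higher in Ercc1. Its CPM was 15.4, 9.92, 14.4 and 15.2 in WT mice, 35.6 and 20.4 in Ercc1 mice and 17.7 and 14.3 in NemoDK_Ercc1 mice, so that both Ercc1 libraries exceeded every other library. The change was 1.03 ± 0.24 in Ercc1 (edgeR adjusted p = 0.0195), but without Ercc1 library 1 it was 0.57 (adjusted p = 0.197). Dnajb11, another BiP cochaperone, was 73.2, 62.2, 65.5 and 92.7 CPM in the WT livers, 99.7 and 63.1 in the Ercc1 livers and 54.2 and 52.4 in the NemoDK_Ercc1 livers. Dnajb9, a cochaperone that represses IRE1, was 37.1, 32.1, 38.5 and 50.6 CPM across WT libraries 1 to 4, 49.4 and 29.2 CPM in Ercc1 and 33.3 and 35.2 CPM in NemoDK_Ercc1. In neither did the Ercc1 libraries leave the others on 1 side, and neither had a call.

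Calr and Canx are the lectin chaperones of newly made glycoproteins. Calr was 711, 509.9, 555 and 721 CPM in WT mice, 894 and 576 CPM in Ercc1 mice and 478 and 466 CPM in NemoDK_Ercc1 mice. Canx was 338, 283, 297 and 356 CPM in the WT livers, 331 and 285 in the Ercc1 livers and 265 and 248 in the NemoDK_Ercc1 livers. For both genes the NemoDK_Ercc1 libraries were below every WT library and no comparison made a call. Creld2, an ER-resident protein induced by ER stress, was 21.9, 18.4, 13.7 and 35.2 CPM in the WT livers, 37.2 and 21.7 in the Ercc1 livers and 13.5 and 16.9 in the NemoDK_Ercc1 livers, again with no call. WT alone spanned 2.57-fold for Creld2, highest in library 4 and lowest in library 3.

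Among the disulfide isomerases P4hb was the 1 with a call. P4hb (chr11:120560298-120573253, minus strand) encodes protein disulfide isomerase, which is also a subunit of the lipid transfer protein that loads apolipoprotein B and of collagen prolyl hydroxylase. It was 1537, 1309, 1377 and 1430.2 CPM across WT libraries 1 to 4, 2215 and 1697 CPM in Ercc1 and 1701 and 1805 CPM in NemoDK_Ercc1, with each mutant library above each WT library. The change was 0.39 ± 0.12 for both groups (edgeR adjusted p = 0.0429), 0.47 ± 0.15 in Ercc1 (adjusted p = 0.0534) and 0.31 ± 0.15 in NemoDK_Ercc1 (adjusted p = 0.175), and the first was lost under 10 of 19 alternatives. Per length it was the most abundant member, with a mean of 1115 TPM in WT. Pdia3 was 392, 313, 378 and 419 CPM in WT mice, 461 and 329 CPM in Ercc1 mice and 307 and 292 CPM in NemoDK_Ercc1 mice. Pdia4 was 208, 146, 142 and 213 CPM in the WT livers, 241 and 183 in the Ercc1 livers and 151 and 141 in the NemoDK_Ercc1 livers. The level of Pdia6 was 278, 195, 321 and 261 CPM in WT mice, 308 and 212 CPM in Ercc1 mice and 205 and 183 CPM in NemoDK_Ercc1 mice. All 3 had Ercc1 library 1 above Ercc1 library 2 and no call. Both NemoDK_Ercc1 libraries were below every WT library for Pdia3, and at least 1 of them was within the WT range for Pdia4 and Pdia6.

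The comparison of NemoDK_Ercc1 with Ercc1 asks what the Nemo allele changed among ERCC1-deficient livers. All 15 folding genes had a negative fitted change there (median -0.54), with none called. An unadjusted p under 0.05 was found for 11 members, 30.6% of the 36 against 6.81% of all genes: Herpud1 and Phgdh higher in NemoDK_Ercc1, and Hspa5, Hyou1, Manf, Dnajb11, Sdf2l1, Calr, Creld2, Syvn1 and Mthfd2 lower. This count rested on Ercc1 library 1. Without it 1 member was left (Herpud1; 2.78% of members, 3.05% of all genes) and the median of the folding genes was -0.25. Without Ercc1 library 2 the count was 19 (52.8% and 11.8%), and without either NemoDK_Ercc1 library it was 4 (11.1%, with 4.3% and 2.31% of all genes). A group with 1 library left was assumed to vary like the others. The mice also differed in age, 15.1 and 13.7 against 11.8 weeks.

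The factors of the integrated stress response gave 1 call in 7 in the mutant groups combined, a higher one. Among all tested genes 14.9% were higher and 13.9% lower there. Atf4, whose protein is controlled mainly by translation, was 132, 114, 135 and 133 CPM across WT libraries 1 to 4, 136 and 100.1 CPM in Ercc1 and 99.9 and 102 CPM in NemoDK_Ercc1. Both NemoDK_Ercc1 libraries lay below all WT libraries, by less than the gap between the Ercc1 libraries, and its change there was -0.35 ± 0.15 (edgeR adjusted p = 0.133). Atf5, a related factor that is abundant in liver, was 530.2, 165, 210.5 and 493 CPM in WT mice, 373 and 321 CPM in Ercc1 mice and 202 and 146 CPM in NemoDK_Ercc1 mice. WT libraries 1 and 4 stood far above WT libraries 2 and 3, a 3.2-fold range that took in every mutant library but 1. Ddit3, the pro-apoptotic factor CHOP, was 4.55, 8.66, 5.37 and 9.46 CPM in the WT livers, 10.9 and 5.601 in the Ercc1 livers and 7.72 and 7.79 in the NemoDK_Ercc1 livers. Its groups overlapped and its change in Ercc1 was 0.23 ± 0.34, with a 95% interval from -0.55 to 1.01.

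Trib3, a pseudokinase that restrains ATF4 and CHOP, varied 9.17-fold among WT livers alone. It was 12.4, 2.37, 21.7 and 6.87 CPM across WT libraries 1 to 4, 13.2 and 26.95 CPM in Ercc1 and 36.03 and 18.5 CPM in NemoDK_Ercc1, and WT library 3 overlapped the mutant libraries. The change for both groups was 1.11 ± 0.56 (edgeR adjusted p = 0.172), and without WT library 3 it was 1.698 (adjusted p = 0.0358). Chac1, which degrades glutathione, was 1.89, 1.61, 2.79 and 1.35 CPM in WT mice, 0.7697 and 4.62 CPM in Ercc1 mice and 2.96 and 1.91 CPM in NemoDK_Ercc1 mice. The Ercc1 libraries were the lowest and the highest of the 8 for this gene. Ppp1r15a (GADD34), which brings a phosphatase back to eIF2α, was 13.2, 11.8, 13.9 and 10.7 CPM in the WT livers, 8.94 and 15.9 in the Ercc1 livers and 13.9 and 10.97 in the NemoDK_Ercc1 livers, with a change of 0.01 ± 0.19 for both groups and a 95% interval from -0.42 to 0.43.

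Nupr1 (chr7:126623249-126630861, minus strand), a small stress-induced nuclear protein, was the member of this role that was higher. It was 0.969, 0.655, 0.306 and 0.965 CPM across WT libraries 1 to 4, 1.47 and 1.799 CPM in Ercc1 and 1.68 and 1.82 CPM in NemoDK_Ercc1, all mutant libraries above all WT libraries and all at a low level. The change was 1.22 ± 0.35 for both groups (edgeR adjusted p = 0.0305), 1.17 ± 0.40 in Ercc1 (adjusted p = 0.0723) and 1.26 ± 0.40 in NemoDK_Ercc1 (adjusted p = 0.0624). The call for both groups was lost under 7 of 19 alternatives.

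The 4 genes of serine, asparagine and one-carbon synthesis, targets of ATF4, were expressed at a low level in WT. Psat1, Phgdh and Mthfd2 were called higher in the mutant groups combined, Psat1 and Mthfd2 in Ercc1, and Phgdh in NemoDK_Ercc1. Psat1 (chr19:15904678-15947337, minus strand), an aminotransferase of serine synthesis, was 0.678, 0.353, 0.873 and 0.5404 CPM in WT mice, 1.91 and 1.36 CPM in Ercc1 mice and 0.953 and 0.8896 CPM in NemoDK_Ercc1 mice. Every mutant library exceeded every WT library, narrowly in NemoDK_Ercc1. Its change was 1.40 ± 0.36 in Ercc1 (edgeR adjusted p = 0.0281) and 0.58 ± 0.39 in NemoDK_Ercc1 (adjusted p = 0.322). For both together it was 0.99 ± 0.32 (edgeR adjusted p = 0.046), lost under 10 of 19 alternatives. The call of Psat1 in Ercc1 was lost under 7 of the 19.

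Phgdh (chr3:98313170-98339990, minus strand), the first enzyme of serine synthesis, rested on few reads: 2, 2, 4 and 2 counts in the WT livers, 7 and 12 in the Ercc1 livers and 24 and 19 in the NemoDK_Ercc1 livers. In CPM this was 0.0969, 0.101, 0.175 and 0.0772, then 0.257 and 0.407, then 0.789 and 0.805, with no overlap between any of the 3 groups. The change was 2.77 ± 0.45 in NemoDK_Ercc1 (edgeR adjusted p = 0.00534) and 1.53 ± 0.49 in Ercc1 (adjusted p = 0.0591). Because 0 WT libraries exceeded the 0.404 CPM cutoff of the filter, Phgdh could enter the test only by being higher in mutant livers, and its call is no support for a direction of the group. Mthfd2, a mitochondrial enzyme of one-carbon metabolism, was 1.11, 0.806, 1.09 and 1.16 CPM in the WT livers, 3.92 and 2.104 in the Ercc1 livers and 1.51 and 1.06 in the NemoDK_Ercc1 livers. The Ercc1 libraries exceeded all others, and 1 NemoDK_Ercc1 library lay within the WT range. For both groups together the change of Mthfd2 was 0.91 ± 0.28 (edgeR adjusted p = 0.0397), a call lost under 11 of 19 alternatives. In NemoDK_Ercc1 it was 0.305 ± 0.342 (edgeR adjusted p = 0.574). Its change was 1.52 ± 0.32 in Ercc1 (edgeR adjusted p = 0.0127), but 1.004 without Ercc1 library 1 (adjusted p = 0.126).

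Asns, which makes asparagine, had 5, 2, 20 and 4 counts in the WT livers, 32 and 20 in the Ercc1 livers and 17 and 15 in the NemoDK_Ercc1 livers. WT library 3 alone accounted for the overlap, at 0.873 CPM against 0.101 to 0.242 CPM in the other WT libraries. The change for both groups was 1.09 ± 0.60 with all libraries (edgeR adjusted p = 0.205) and 2.14 without WT library 3 (adjusted p = 0.0111). Only 1 WT library, library 3, exceeded the cutoff of the filter for this gene. That was too few to pass it, so with or without library 3 Asns entered the test only through its mutant libraries. Neither change is therefore support for a direction.

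Other genes of these pathways gave mixed results. Of 43 further genes of ER folding, degradation and transport, 5 were higher and 8 lower in the mutant groups combined (median -0.08). Of all tested genes 14.9% were higher and 13.9% lower in that comparison. Sil1, another nucleotide exchange factor of BiP, was 59.7, 54.6, 51.2 and 51.5 CPM across WT libraries 1 to 4, 36.3 and 38.5 CPM in Ercc1 and 33.7 and 36.8 CPM in NemoDK_Ercc1, a change of -0.58 ± 0.09 (edgeR adjusted p = 0.00225). The isomerase Pdia5 fell by a like amount, -0.61 ± 0.09 (adjusted p = 0.00244), from 59.4, 64.3, 67.2 and 70.95 CPM to 44.5 and 37.98 in Ercc1 and 45.1 and 44.6 in NemoDK_Ercc1. Among the degradation genes Derl2 was lower (-0.47 ± 0.12, edgeR adjusted p = 0.0182). Edem2, the mannosidase that starts glycan trimming for degradation, went the opposite way to Edem1. It was 69.9, 58.3, 57.6 and 58.8 CPM in WT mice, 101 and 84.6 CPM in Ercc1 mice and 82.2 and 87.1 CPM in NemoDK_Ercc1 mice, a change of 0.54 ± 0.10 (edgeR adjusted p = 0.00653). Dnajc10 (0.43 ± 0.10), Erp29 (0.30 ± 0.09) and the retrieval receptor Kdelr3 (1.84 ± 0.56) were higher as well, the last from 0.339, 0, 0.262 and 0.2702 CPM in WT.

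Of 14 further kinases and factors of the integrated stress response, 2 were higher and 2 lower, beside 14.9% and 13.9% of all tested genes. Atf3, a stress-induced repressor, was at 0.969, 1.81, 1.05 and 1.54 CPM in the WT livers, 10.9 and 6.38 in the Ercc1 livers and 5.79 and 5.85 in the NemoDK_Ercc1 livers. Its change was 2.40 ± 0.26 for both groups (edgeR adjusted p = 0.000552), and the mutant libraries lay far above WT. Eif2s1, which encodes eIF2α, was higher at 0.34 ± 0.10 (adjusted p = 0.0355). Ppp1r15b, the constitutive partner of the eIF2α phosphatase, was lower at -0.55 ± 0.14 (adjusted p = 0.0184), and Cebpg, a partner of ATF4, was lower at -0.32 ± 0.10 (adjusted p = 0.0347).

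Of 24 further ATF4 targets 21 were tested, and 4 were higher and 0 lower (median 0.20), with 14.9% of all genes higher. They included Pck2, the mitochondrial form of phosphoenolpyruvate carboxykinase, at 3.003, 4.68, 4.89 and 5.13 CPM across WT libraries 1 to 4, 7.55 and 8.04 CPM in Ercc1 and 8.97 and 8.01 CPM in NemoDK_Ercc1. Its change was 0.88 ± 0.18 (edgeR adjusted p = 0.00856). The proline synthesis genes Aldh18a1 (0.92 ± 0.22, adjusted p = 0.0161) and Pycr1 (1.32 ± 0.38, adjusted p = 0.0329) were the others without overlap, and both were highest in Ercc1 library 1 at 5.205 and 1.72 CPM. Of 13 cytosolic aminoacyl-tRNA synthetases 1 was higher (Wars, 0.43 ± 0.12, edgeR adjusted p = 0.0317), beside 14.9% of all tested genes. Of 9 genes of the mitochondrial stress response 1 was lower, beside 13.9% of all tested genes, with a list median of -0.04.

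Among 12 further ER stress transducers 1 was higher and 1 lower, beside 14.9% and 13.9% of all tested genes. Bhlha15 (MIST1), a factor of secretory cells downstream of XBP1, had 3, 1, 8 and 0 counts in the WT livers, 218 and 29 in the Ercc1 livers and 16 and 15 in the NemoDK_Ercc1 livers. The 7.99 CPM of Ercc1 library 1 stood far above the 0.984 CPM of Ercc1 library 2 and every other library, in the same mouse that was highest for the folding genes. The kinase Map3k5 was 24.6, 34.5, 54.5 and 31.8 CPM in WT mice, 19.8 and 19.4 CPM in Ercc1 mice and 22.8 and 22.5 CPM in NemoDK_Ercc1 mice, a change of -0.79 ± 0.22 (edgeR adjusted p = 0.0267). Bhlha15, Pycr1 and Kdelr3 were below the cutoff of the low-count filter in every WT library, so they too could be tested only by being higher in mutant livers.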

How the data were processed

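Liver RNA of 8 mice was sequenced after Trizol extraction and Illumina TruSeq stranded total RNA library preparation, per the labels' protocols, with 1 library per mouse (4 WT, 2 Ercc1, 2 NemoDK_Ercc1). The deposited table holds raw read counts per gene. FastQC, HISAT2 2.1.0, featureCounts and the GRCm38 genome are named in the submitters' processing notes. The annotation release, the strand setting and the handling of reads with several alignments are not given in the sources used here. Exons of 4 members overlap another gene on the same strand (Ddit3, Hsp90b1, Manf and Pdia4) and those of 10 on the other strand (Atf5, Ddit3, Dnajb9, Eif2ak3, Hsp90b1, Manf, Pdia3, Pdia6, Ppp1r15a and Syvn1), so their counts are less certain.

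The software was edgeR 4.0.16, DESeq2 1.42.0, limma 3.58.1 and the package data.table in version 1.17.8, run under R 4.3.3, and Python 3.11.15 with pandas 2.3.3 and matplotlib 3.10.9 for sequences and figures. Genes were filtered with filterByExpr on the 3 groups, TMM factors were computed, and all 8 libraries entered 1 quasi-likelihood fit with a mean for each group (5 residual degrees of freedom). Ercc1 against WT, NemoDK_Ercc1 against WT, NemoDK_Ercc1 against Ercc1 and the mean of both mutant groups against WT were tested over 15598 genes with Benjamini-Hochberg adjustment at 0.05. The standard error of a fold change is its absolute log2 value over the root of the F statistic. TPM used union exon lengths of GENCODE M21, which also gave gene coordinates, for 99.53% of identifiers. All 36 members are described. Further pathway genes named are those called in the mutant groups together without overlap of libraries, up to 4 per list and direction. Members, lists and motifs were chosen with earlier results of these data known. Alternatives were RLE, upper-quartile or no scaling factors, no filter or 1 CPM in 2 libraries, DESeq2, limma-voom, a fit of the compared groups alone, a covariate for age, thresholds of 0.01 and 0.1, and each of the 8 libraries left out. Promoter windows are from RefSeq.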

Additional observations from a re-analysis of the deposited data

Results flagged for a closer look

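Atf4 in WT library 2, at 114 CPM, stood apart from the other 3 WT libraries, which lay between 132 and 135 CPM. The gap of the lowest library to its neighbour was large against the range of the group. Such a gap is found by chance in about 1 of 20 groups, and 36 members were examined.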

How the results depend on the processing

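No paired analysis was possible because the labels pair no mice, and the library numbers are not shared between the groups. No fold change of a called member changed sign under any of the 19 alternatives, of which 8 leave out 1 library. RLE factors, limma-voom and a filter at 1 CPM in 2 libraries kept each count of called members within 1.5 times its value, though Phgdh or Asns could not be tested under every filter. In Ercc1 against WT, 5 members were called, with 1761 of all 15598 genes higher and 1482 lower. Library size alone gave 9 (7 higher, 2 lower, with 3765 and 690 of all genes). DESeq2 gave 10 (2029 and 1865 of all genes), and age as a covariate 0 (24 and 17). A threshold of 0.01 gave 2 (731 and 492), and a threshold of 0.1 gave 11 (2490 and 2299). Without WT library 3 the count was 8 (1845 and 1563 of all genes). Without Ercc1 library 1, which leaves 1 library in that group, fewer members and fewer of all genes were called. In NemoDK_Ercc1 against WT, 8 members were called, with 1646 of all genes higher and 1154 lower. Upper-quartile factors gave 5 (2048 and 783), and library size alone 5 (3 higher, 2 lower, with 3508 and 490 of all genes). Age as a covariate gave 8 (1584 and 1058), and a threshold of 0.01 gave 2 (598 and 328). The count was 4 without WT library 1 (1279 and 918 of all genes) and 5 without WT library 4 (1271 and 815). It was 10 without WT library 3 (1672 and 1344). Without either NemoDK_Ercc1 library fewer members and fewer of all genes were called, and the remaining library is assumed to vary like the others. In NemoDK_Ercc1 against Ercc1, no filter gave 3 (Herpud1, Hyou1 and Manf) and DESeq2 gave 1 (Herpud1), and leaving out 1 library gave 0 each time. For both mutant groups against WT, 12 members were called, with 2317 of all genes higher and 2171 lower. Age as a covariate gave 1 (445 and 382 of all genes), and a threshold of 0.01 gave 3 (1101 and 898). The count was 7 without WT library 1 (1939 and 1745) and 6 without WT library 2 (2089 and 1867). It was 13 without WT library 3 (2247 and 2085). Leaving out any 1 mutant library leaves 1 library in its group, and fewer members and fewer of all genes were then called. The cause of these changes was not tested. Counts of members with an unadjusted p under 0.05, and medians of the folding genes without single libraries, were added after the data were seen. Depth limits the low genes most: Asns and Phgdh had as few as 2 counts in a WT library.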
